A study of Homo sapiens with 4 samples.

Results

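The genes described here are 34 genes of cholesterol and fatty acid synthesis, out of 61498 genes in the RNA-seq tables of K562 cells. They were chosen by name as genes of these pathways, by a rule that used no measured value but with earlier results of these data known, and all 34 were found under these symbols. They comprise 7 genes of the mevalonate pathway, 11 genes that lead from squalene formation to cholesterol, 5 regulators of the sterol regulatory element-binding proteins (SREBPs), 4 genes of sterol transport, receptor turnover and export, and 7 genes of fatty acid synthesis. K562 is an established human erythroleukaemia cell line. One group consisted of untreated cells (2 libraries), and the other of cells kept for 108 h with 50 µM hemin (2 libraries). Hemin is an iron-containing porphyrin that induces erythroid differentiation of this line. No time in culture and no vehicle are stated for the untreated cells, so neither can be told apart from hemin. Both groups were grown in RPMI 1640 with heat-inactivated fetal calf serum, a source of lipids from outside the cell, and no group without serum and no other cell line was compared. The poly(A)+ RNA was read in 50-base reads, and the comparison answered which genes changed their expression after differentiation was induced.

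Cholesterol is built from acetyl-CoA through mevalonate, isoprenoid units and squalene, and fatty acids are built from the same acetyl-CoA through malonyl-CoA. The genes of both pathways are classical targets of the SREBPs, transcription factors that are held as precursors in the endoplasmic reticulum by SCAP and the INSIG proteins when sterols are plentiful, and that are released by proteolysis in the Golgi when sterols are scarce. SREBF2 encodes the form that acts mainly on cholesterol genes and SREBF1 the forms that act mainly on fatty acid genes. Red cell precursors need lipids for their membranes, and a mature red cell makes no cholesterol of its own.

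Since SREBPs bind DNA, the RefSeq promoter windows of the members (GRCh38.p14, from 250 bases before to 50 bases after the annotated start) were searched on both strands for the sterol regulatory element TCACNCCAC, the CCAAT box CCAAT and the GC box GGGCGG. A window was found for 29 members, and none for ACAT2, FDFT1, SQLE, ABCG1 and FASN. The windows of 4 genes are shown because each of these genes had the smallest p in its group among the members with a window, namely HMGCS1 (chr5:43313363-43313662, minus strand), CYP51A1 (chr7:92134428-92134727, minus strand), SREBF2 (chr22:41832855-41833154, plus strand) and ELOVL6 (chr4:110198566-110198865, minus strand). Each is written 5′ to 3′ on the strand of the gene, and capitals mark a match to one of these motifs or to its reverse complement, where adjacent matches can overlap:
HMGCS1: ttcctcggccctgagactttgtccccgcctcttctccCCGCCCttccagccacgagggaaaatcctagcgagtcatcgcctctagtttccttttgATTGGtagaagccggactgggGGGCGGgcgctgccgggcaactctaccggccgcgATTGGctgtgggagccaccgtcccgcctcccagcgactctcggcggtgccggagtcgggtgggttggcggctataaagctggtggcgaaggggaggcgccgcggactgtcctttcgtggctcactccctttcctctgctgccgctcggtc
CYP51A1: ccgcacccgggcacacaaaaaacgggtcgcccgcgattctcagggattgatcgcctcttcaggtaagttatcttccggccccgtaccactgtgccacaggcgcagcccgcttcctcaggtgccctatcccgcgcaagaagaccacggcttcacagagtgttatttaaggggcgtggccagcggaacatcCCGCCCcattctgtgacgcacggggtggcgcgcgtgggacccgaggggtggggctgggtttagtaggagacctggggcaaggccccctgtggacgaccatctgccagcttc
SREBF2: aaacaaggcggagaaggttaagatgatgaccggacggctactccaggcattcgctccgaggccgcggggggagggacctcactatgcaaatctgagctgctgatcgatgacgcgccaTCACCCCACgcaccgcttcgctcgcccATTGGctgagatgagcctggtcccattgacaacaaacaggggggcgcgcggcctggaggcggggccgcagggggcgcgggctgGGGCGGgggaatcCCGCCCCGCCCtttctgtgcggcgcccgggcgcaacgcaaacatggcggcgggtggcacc
ELOVL6: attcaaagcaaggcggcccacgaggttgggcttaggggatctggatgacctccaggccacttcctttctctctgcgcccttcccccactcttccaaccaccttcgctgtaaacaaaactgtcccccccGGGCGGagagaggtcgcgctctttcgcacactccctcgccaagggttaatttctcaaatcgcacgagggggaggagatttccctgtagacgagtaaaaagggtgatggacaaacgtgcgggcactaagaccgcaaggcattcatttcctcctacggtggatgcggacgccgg

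Of these windows only that of SREBF2 held TCACNCCAC, beginning 133 bases before the start on the strand of the gene, and SREBF2 was also the only one of the 29 members with a match. The motif was found in 1.13% of the 35116 windows and 1.39% of the 27305 genes in the RefSeq table. A gene counted as matched if any of its windows matched, and no share was taken among expressed genes only. CCAAT was found in 21 of the 29 members against 39.7% of all genes. In the printed windows it occurred 2 times in HMGCS1 and 1 time in SREBF2. GGGCGG was found in 28 of the 29 members against 48.3% of all genes, with NSDHL as the exception. It occurred 2 times in HMGCS1, 3 times in SREBF2, and 1 time each in CYP51A1 and ELOVL6. These matches are descriptions of the letters in a window of 300 bases, not of protein binding. Other forms of each motif and sites outside the window were not searched. A member without a match is therefore not shown to lack the element.

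The expected counts summed to between 7455447 and 8241534 per library. The edgeR filter on low counts left 14458 genes, of which 1012 were higher and 1033 lower in the cells with hemin at an adjusted p under 0.05, and the median log2 fold change of the tested genes was -0.0048. The 14 erythroid markers examined were all detected, with a summed level of 6455 to 6672 TPM (a level scaled by transcript length and library size) in the untreated libraries and 8056 to 8585 TPM in the hemin-treated ones. Of 6 megakaryocyte markers 3 (GP9, PF4 and PPBP) were at 0 everywhere, with sums of 4.69 to 7.30 TPM untreated and 3.87 to 4.21 TPM with hemin. Of 6 myeloid markers 2 (MPO and ELANE) were at 0, with sums of 6.90 to 7.43 and 7.20 to 9.35 TPM, and of 6 lymphoid markers 3 (CD3E, CD2 and MS4A1) were at 0, with sums of 2.63 to 3.04 and 0.54 to 1.75 TPM. The part of the erythroid shift in the values below was not tested.

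Of the 34 members, 32 passed the filter on low counts. After hemin, 17 of them rose, none fell and 15 did not pass the test (edgeR's quasi-likelihood test, Benjamini-Hochberg adjustment over all tested genes), where 7.00% of all tested genes were higher and 7.14% lower. DESeq2 called 13 members higher and 0 lower, and edgeR without untreated replicate 1 called 10 higher. Without hemin replicate 1 edgeR called 1 lower, MVD. Over the 32438 genes it fitted, DESeq2 called 589 higher and 479 lower. On log2(TPM + 1), limma called 0 members after adjustment, and of all tested genes 14 higher and 33 lower. At an unadjusted p under 0.05 limma had 15 members higher and 3 lower, against 969 and 1677 of all tested genes. TPM also carries the transcript lengths discussed further on, whose part in this was not tested. In edgeR on all 4 libraries, 23 members were higher with hemin at an unadjusted p under 0.05. INSIG2 was the 1 that was lower, against 2133 higher and 2118 lower of all tested genes. The fitted log2 fold changes ran from -0.35 to 0.57 with a median of 0.25, equal to 1.19-fold, and 24 of the 32 were positive. In CPM (counts scaled to a common library size by TMM), both hemin-treated libraries lay above both untreated ones for 23 members, against 28.1% of all tested genes, and below them for 3 members, against 29.3%. The 2 libraries of a condition lay close to each other for most members in the plot of values by library. The summed level of the 34 members was 2198 and 2177 TPM in the untreated libraries and 2500 and 2496 TPM in the hemin-treated ones. In RNA from a whole culture, a change of the RNA level in each cell and a change in the proportions of cells cannot be told apart.

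**Figure D1:**
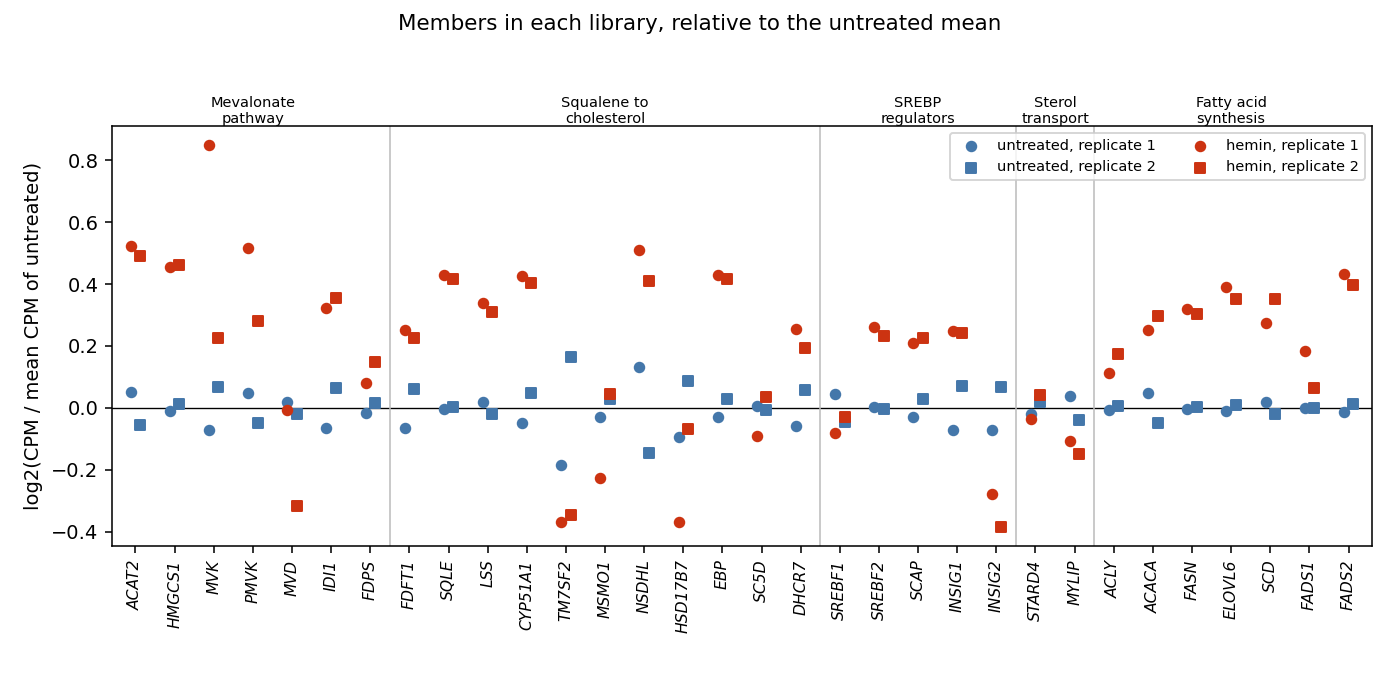
Each point is the CPM of a tested member in 1 library, as the log2 ratio to the mean CPM of the 2 untreated libraries, with the members ordered by pathway step from left to right. Blue marks untreated and red hemin-treated libraries. For 23 members both red points lie above both blue points, against 28.1% of all tested genes. They include all 7 fatty acid genes and 13 of the 18 sterol enzymes. TM7SF2, INSIG2 and MYLIP have both red points below, against 29.3% of all tested genes.

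Counting depth differed among the members. The 23 members with a mean count of at least 200 (292.8 to 8983 counts) had standard errors of 0.036 to 0.098 on the log2 scale, and 15 of them rose. At this depth 13.0% of all tested genes were higher and 8.85% lower. The 9 members below it (77.8 to 195.8 counts) had standard errors of 0.099 to 0.20, and 2 of them, EBP and FADS2, rose. A member that did not pass the test is not thereby shown to be unchanged, and its interval is given below.

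The 7 enzymes of the mevalonate pathway convert acetyl-CoA to farnesyl diphosphate. Here 3 of the 7 rose and none fell, against 7.00% higher and 7.14% lower of all tested genes. The median log2 fold change of the 7 was 0.40. For 6 of them both hemin-treated libraries were above both untreated ones in CPM, against 28.1% of all tested genes. The summed level of the 7 genes was 418.6 and 399.5 TPM untreated and 475.6 and 453.9 TPM with hemin.

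The first of these steps is catalysed by ACAT2, the cytosolic thiolase that makes acetoacetyl-CoA. In the untreated cells ACAT2 had 280 and 246 counts, and with hemin it had 364 and 387. Its log2 fold change of 0.51 (SE 0.078, adjusted p = 0.00398) was the largest among the members that passed the test, and its level went from 33.5 ± 1.53 to 47.3 ± 1.04 TPM (SD, n = 2). HMGCS1, the synthase of the next step, had 1188 and 1143 counts untreated and 1538 and 1682 counts with hemin. It rose by 0.46 on the log2 scale (SE 0.043, adjusted p = 0.000387), the smallest p of all members, and from 78.7 ± 2.16 to 99.4 ± 0.58 TPM. In CPM both hemin-treated libraries of each gene lay above both untreated ones, as in 28.1% of all tested genes. IDI1, the isomerase of the 5-carbon isoprenoid units, had 367 and 380 counts untreated against 451 and 501 counts with hemin. It rose by 0.34 (SE 0.072, adjusted p = 0.0147), from 38.2 ± 0.21 to 46.8 ± 2.60 TPM. Without untreated replicate 1 the adjusted p of IDI1 was 0.0909.

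Between these steps lie the kinases MVK and PMVK and the decarboxylase MVD. MVK had the largest fitted change of all members, 0.57 (95% interval 0.12 to 1.01), but did not pass the test (adjusted p = 0.0912). It had 90 and 94 counts untreated and 160 and 113 counts with hemin, and the 2 hemin-treated libraries differed more from each other than the lower one did from the untreated ones. Without hemin replicate 2 it passed, with a log2 fold change of 0.85 and an adjusted p of 0.00252, and without hemin replicate 1 the change was 0.24 with an adjusted p of 0.491. PMVK had 80 and 71 counts untreated and 104 and 96 counts with hemin (log2 fold change 0.40, 95% interval 0.044 to 0.76, adjusted p = 0.126). MVD was the only member of the pathway with a negative value, -0.16 (adjusted p = 0.329). Its CPM of 56.8 and 55.3 untreated and 55.8 and 45.0 with hemin overlapped. The value of MVD was -0.31 without hemin replicate 1 and -0.0059 without hemin replicate 2. FDPS, the farnesyl diphosphate synthase, was the most abundant gene of the pathway at 160.6 ± 0.29 TPM untreated and 165.9 ± 6.05 TPM with hemin. Its log2 fold change of 0.12 (SE 0.050) had an adjusted p of 0.161.

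The 11 enzymes from squalene formation to cholesterol carry out the steps that only sterols need. Of them 6 rose and none fell, against 7.00% higher and 7.14% lower of all tested genes. The median log2 fold change of the 11 was 0.24. Both hemin-treated libraries lay above both untreated ones for 7 genes and below for 1, against 28.1% and 29.3% of all tested genes. Their summed level was 673.5 and 681.0 TPM untreated and 817.8 and 812.5 TPM with hemin.

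The first 4 enzymes of this stretch all rose. FDFT1, the squalene synthase that commits farnesyl diphosphate to sterols, had 2099 and 2172 counts untreated and 2453 and 2623 with hemin. It was the most abundant member, at 307.6 ± 12.8 TPM untreated and 370.0 ± 8.42 TPM with hemin, and rose by 0.24 (SE 0.049, adjusted p = 0.0132). SQLE, the squalene epoxidase and a flux-controlling enzyme of the pathway, had 902 and 856 counts untreated and 1140 and 1231 with hemin. It rose by 0.42 (SE 0.047, adjusted p = 0.00076), from 67.1 ± 8.80 to 83.9 ± 2.61 TPM. LSS closes the sterol ring system to lanosterol. Its counts were 883 and 815 untreated and 1034 and 1103 with hemin, a rise of 0.32 (SE 0.049, adjusted p = 0.0036), from 51.4 ± 6.96 to 69.1 ± 3.34 TPM. CYP51A1, the lanosterol demethylase, had 638 and 645 counts untreated and 831 and 891 with hemin, and rose by 0.42 (SE 0.056, adjusted p = 0.00192), from 49.6 ± 2.71 to 65.4 ± 0.11 TPM. In all 4 genes both hemin-treated CPM lay above both untreated ones, as in 28.1% of all tested genes. FDFT1 lost its call without untreated replicate 1 (adjusted p = 0.0746).

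The enzymes after lanosterol demethylation gave a mixed picture. The sterol C14 reductase TM7SF2 had the lowest fitted value of all members, -0.35 (95% interval -0.73 to 0.019, adjusted p = 0.193), with 92 and 111 counts untreated and 76 and 84 with hemin. MSMO1, the C4 methyl oxidase, had a value of -0.080 (95% interval -0.33 to 0.17, adjusted p = 0.692), and its hemin-treated CPM of 22.3 and 26.9 lay on either side of the untreated 25.5 and 26.6. NSDHL, the C4 decarboxylating dehydrogenase, had 114 and 89 counts untreated and 139 and 141 with hemin. Its value of 0.46 (SE 0.14) had an adjusted p of 0.0555, close to the threshold of 0.05. The adjusted p was 0.0263 without the filter on low counts and 0.242 in DESeq2, and 3 of 13 alternative analyses called NSDHL higher. HSD17B7, the keto reductase of the same complex, had a value of -0.21 (95% interval -0.60 to 0.19, adjusted p = 0.488), with 80 and 86 counts untreated and 62 and 83 with hemin.

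EBP, the sterol isomerase, had 146 and 144 counts untreated and 188 and 203 counts with hemin. It rose by 0.42 (SE 0.099, adjusted p = 0.0225), from 28.0 ± 2.67 to 35.6 ± 1.90 TPM. SC5D, the C5 desaturase that follows EBP, had 304 and 285 counts untreated and 266 and 316 with hemin, so that the groups overlapped (log2 fold change -0.026, 95% interval -0.21 to 0.16). DHCR7, which makes cholesterol from 7-dehydrocholesterol, had 935 and 959 counts untreated and 1090 and 1136 with hemin. It rose by 0.22 (SE 0.055, adjusted p = 0.0268), from 82.6 ± 5.27 to 97.7 ± 8.99 TPM. The call of EBP was lost when any one of the 4 libraries was left out (adjusted p = 0.0524 to 0.10) and in DESeq2 (0.157). That of DHCR7 was lost without untreated replicate 1 (0.147) and without hemin replicate 1 (0.0703).

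**Figure D2:**
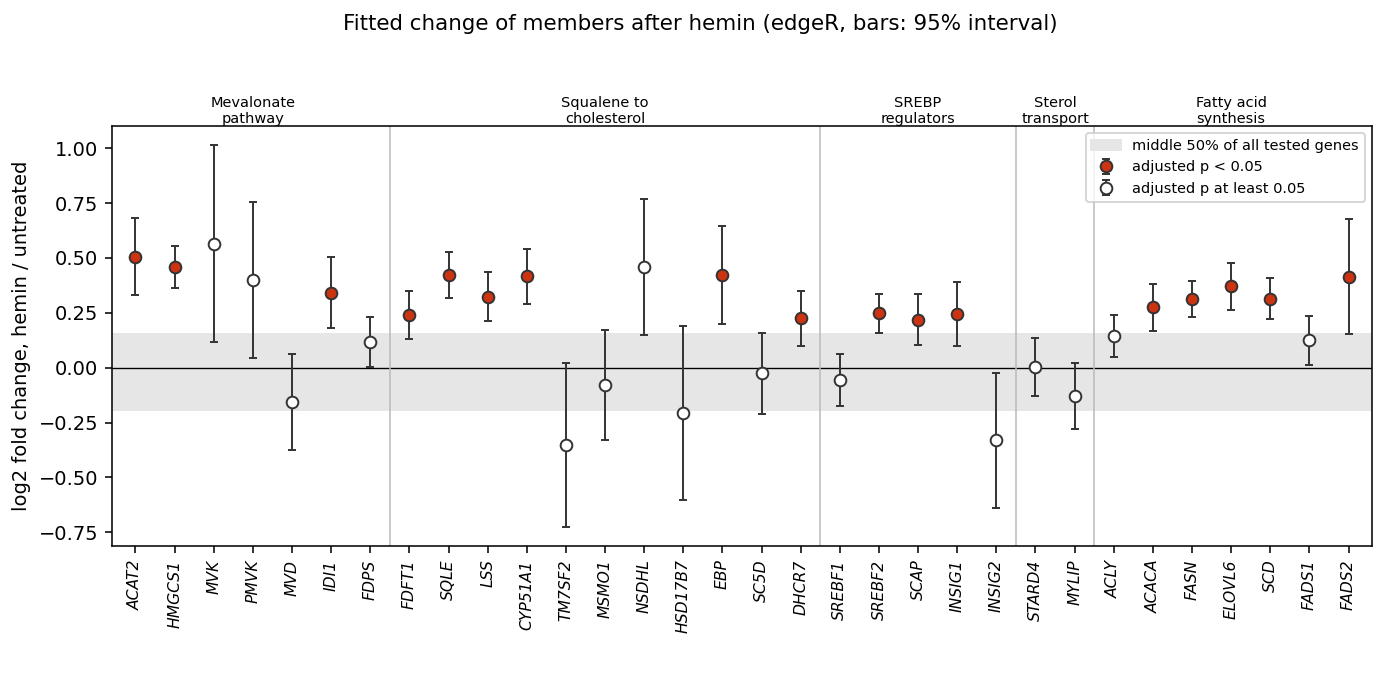
Points are the log2 fold changes fitted by edgeR for the 32 tested members in pathway order, with bars for the 95% interval and filled points for an adjusted p under 0.05. The grey band holds the middle 50% of all tested genes, -0.19 to 0.15. All 17 filled points lie above the band, between 0.22 and 0.51, and the negative values belong to open points.

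Among the 5 regulators, 3 rose and none fell, against 7.00% higher and 7.14% lower of all tested genes. The median log2 fold change of the 5 was 0.22. SREBF2, the SREBP gene of the sterol pathway, had 2268 and 2138 counts untreated and 2546 and 2712 with hemin. It rose by 0.25 (SE 0.040, adjusted p = 0.00472), from 93.8 ± 1.17 to 110.5 ± 0.75 TPM. SREBF1 had 1136 and 1009 counts untreated and 975 and 1101 with hemin, and its value of -0.055 (95% interval -0.17 to 0.062, adjusted p = 0.539) did not pass. In CPM, the 143.6 and 134.7 of the untreated libraries overlapped the 131.5 and 136.5 of the hemin-treated ones. On the level scale SREBF1 stood above SREBF2 in the untreated cells, at 106.8 ± 2.93 TPM, and below it with hemin, at 89.9 ± 10.3 TPM. No test of the difference between the 2 genes was made.

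SCAP, the escort of the SREBP precursors, had 738 and 729 counts untreated and 818 and 900 with hemin. It rose by 0.22 (SE 0.052, adjusted p = 0.0243), from 42.5 ± 1.5 to 49.1 ± 4.76 TPM. INSIG1, which retains SCAP in the endoplasmic reticulum and is itself a classical SREBP target, had 529 and 553 counts untreated and 620 and 671 with hemin. It rose by 0.25 (SE 0.065, adjusted p = 0.0351), from 48.2 ± 3.07 to 55.6 ± 1.19 TPM. Its paralogue INSIG2 had 117 and 122 counts untreated and 95 and 96 with hemin. Both hemin-treated libraries of INSIG2 were below both untreated ones in CPM, as in 29.3% of all tested genes. Its value of -0.33 (95% interval -0.64 to -0.024) did not pass after adjustment (adjusted p = 0.141). The call of SCAP was lost in DESeq2 (0.0847), without untreated replicate 1 (0.125), untreated replicate 2 (0.0555) and hemin replicate 2 (0.0833). The call of INSIG1 was lost in DESeq2 (0.105), with scaling by library size alone (0.0582), and without untreated replicate 1 (0.187), hemin replicate 1 (0.0626) or hemin replicate 2 (0.0775).

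None of the 4 genes of sterol transport, receptor turnover and export passed the test, and 2 of them were too low to be tested. STARD4, a carrier of cholesterol between membranes, had 631 and 613 counts untreated and 584 and 671 with hemin. Its log2 fold change of 0.0040 had a 95% interval of -0.13 to 0.14. MYLIP, the ubiquitin ligase that marks lipoprotein receptors for degradation, had 509 and 456 counts untreated and 431 and 456 with hemin. In CPM both hemin-treated libraries, 58.1 and 56.5, lay below the untreated values of 64.4 and 60.9, as in 29.3% of all tested genes. The log2 fold change of MYLIP, -0.13 (95% interval -0.28 to 0.020), had an adjusted p of 0.236. The sterol exporter ABCA1 had 3 and 7 counts untreated and 2 and 4 with hemin, a ratio of 0.581 with an exact 95% interval of 0.174 to 1.76 that covers counting error only. ABCG1, the other exporter, had 0 counts in all 4 libraries, which allows up to 3 counts per library, or 0.364 to 0.402 CPM.

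In the fatty acid pathway 5 of the 7 genes rose and none fell, against 7.00% higher and 7.14% lower of all tested genes. The median log2 fold change of the 7 was 0.31. Both hemin-treated libraries lay above both untreated ones for all 7, against 28.1% of all tested genes. The summed level was 733.5 and 722.9 TPM untreated and 839.4 and 838.8 TPM with hemin, of which FASN and SCD held the most.

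ACLY, which splits citrate to supply acetyl-CoA to both pathways, had 2065 and 1974 counts untreated and 2104 and 2387 with hemin. Its value of 0.14 (SE 0.042, 95% interval 0.049 to 0.24) had an adjusted p of 0.0517, just above the threshold. The value was 0.18 without hemin replicate 1 and 0.11 without hemin replicate 2. In DESeq2 the adjusted p of ACLY was 0.0933, and 5 of 13 alternative analyses called it higher. ACACA, the carboxylase that makes malonyl-CoA, had 1434 and 1270 counts untreated and 1550 and 1739 with hemin. It rose by 0.27 (SE 0.048, adjusted p = 0.00678), from 36.5 ± 1.43 to 39.9 ± 0.84 TPM. FASN, the fatty acid synthase, had the highest counts of all members, with 8191 and 7787 untreated and 9609 and 10346 with hemin. It rose by 0.31 (SE 0.036, adjusted p = 0.000913), from 214.3 ± 0.76 to 254.1 ± 1.99 TPM.

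The products of FASN are lengthened by ELOVL6 and desaturated by SCD. ELOVL6 had 898 and 863 counts untreated and 1112 and 1177 with hemin, and rose by 0.37 on the count scale (SE 0.048, adjusted p = 0.00161). Its TPM overlapped between the groups, at 37.0 and 49.2 untreated and 60.7 and 39.9 with hemin. SCD had 6335 and 5831 counts untreated and 7089 and 8130 with hemin. It rose by 0.31 (SE 0.042, adjusted p = 0.00182), from 212.3 ± 7.01 to 258.1 ± 7.82 TPM. The neighbouring genes FADS1 and FADS2 on chromosome 11 encode the desaturases of polyunsaturated fatty acids. FADS1 had 2034 and 1925 counts untreated and 2166 and 2167 with hemin. Its value of 0.12 (95% interval 0.014 to 0.23) did not pass (adjusted p = 0.126). The value was 0.18 without hemin replicate 2 and 0.070 without hemin replicate 1, and 1 of 13 alternative analyses called FADS1 higher. FADS2 was far less abundant, with 112 and 108 counts untreated and 143 and 152 with hemin, and rose by 0.41 (SE 0.12, adjusted p = 0.0438), from 10.6 ± 4.06 to 14.6 ± 1.06 TPM. The call of FADS2 was the least stable of the 17. It was lost when any one library was left out (adjusted p = 0.109 to 0.135), in DESeq2 (0.273), with scaling by library size alone (0.0622) and with the replicate number as a block (0.0684).

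**Figure D3:**
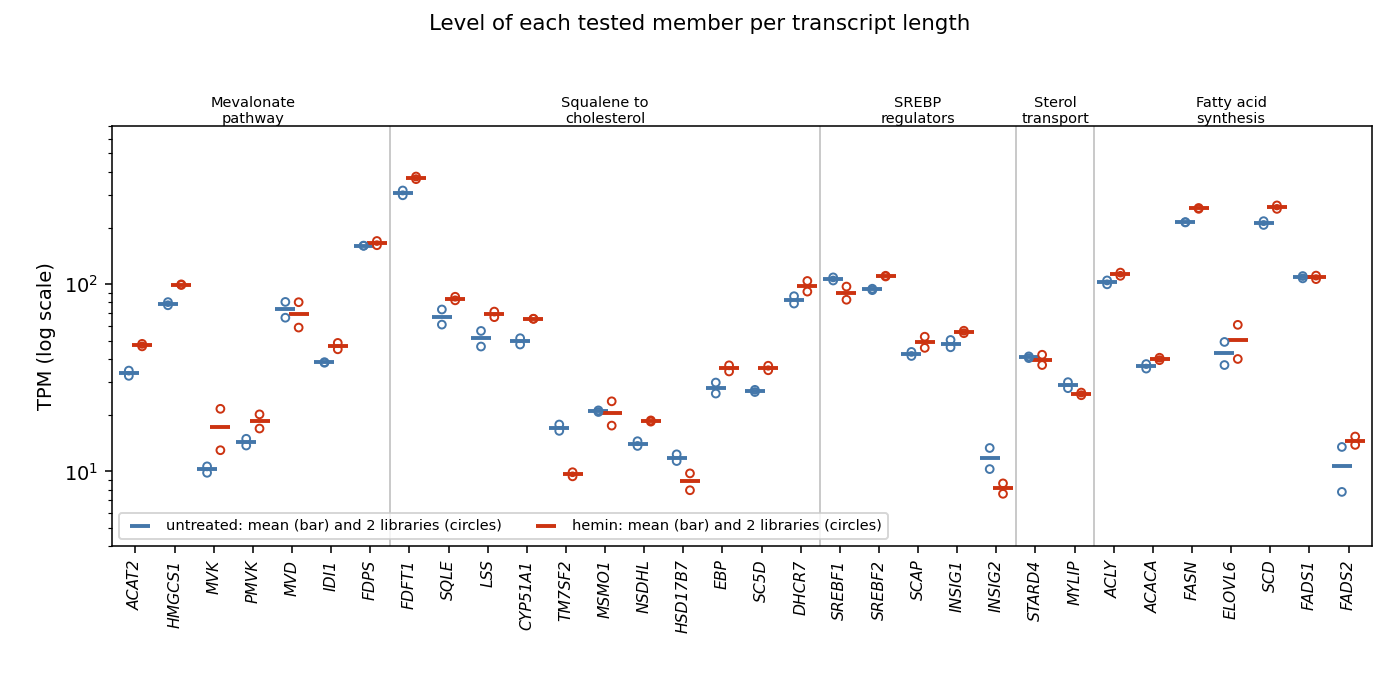
Circles are the TPM of each tested member in the 2 libraries of a condition and bars are their means, on a log axis, with blue for untreated and red for hemin. Levels span from 8.12 TPM for INSIG2 with hemin to 370.0 TPM for FDFT1 with hemin, and the circles of FADS2, MVK and ELOVL6 stand far apart within a condition.

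By level per transcript length, FDFT1 ranked first among the members in both conditions, followed by FASN and SCD, whose TPM did not differ beyond their SD in either condition, and then by FDPS. Below these, FADS1, SREBF1, ACLY and SREBF2 lay between 93.8 and 109.0 TPM in the untreated cells. The lowest tested members were MVK, FADS2, INSIG2 and HSD17B7 in the untreated cells, between 10.2 and 11.9 TPM, and INSIG2, HSD17B7 and TM7SF2 in the hemin-treated cells, between 8.12 and 9.66 TPM. INSIG1 exceeded INSIG2 in all 4 libraries.

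TPM also depends on which transcripts of a gene RSEM assigned the reads to, through the effective length. For 6 members the log2 ratio of the mean TPM differed from the count-based value by over 0.18, namely MVK, TM7SF2, HSD17B7, SC5D, SREBF1 and INSIG2. SC5D had a count-based value of -0.026 and a TPM ratio of 0.41, and its effective length was 1985 and 1983 bases in the untreated libraries against 1342 and 1534 bases in the hemin-treated ones. TM7SF2 had -0.35 on the count scale and -0.83 on the TPM scale, with effective lengths of 920.0 and 1245 bases untreated and 1420 and 1503 bases with hemin. For SREBF1 the values were -0.055 and -0.25. Neither difference in length was tested.

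**Figure D4:**
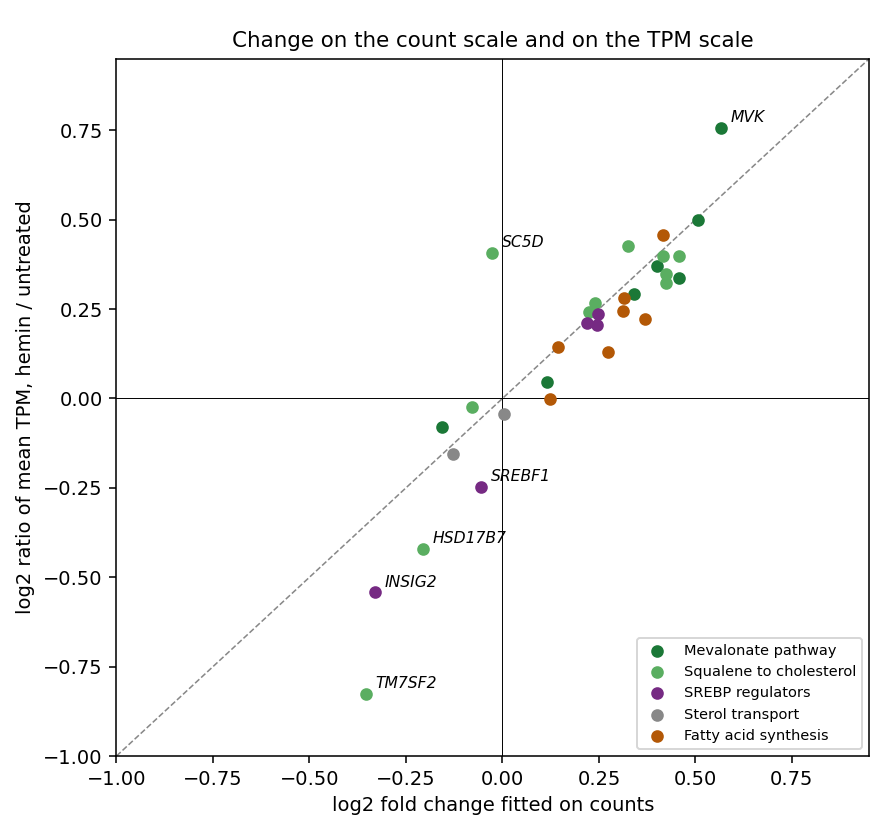
Each point is a tested member, with the log2 fold change fitted on counts on the x axis and the log2 ratio of the mean TPM on the y axis, coloured by pathway group. Most points lie near the dashed line of equal values, and the 6 named genes differ by more than 0.18, with SC5D above the line at 0.41 and TM7SF2 below it at -0.83.

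Some members share exonic bases with other genes in GENCODE 44 (GRCh38), and the RSEM options given in the study's methods name no strand setting, for which the default uses reads of both strands. Reads from bases shared by 2 genes, also on opposite strands, then cannot be told apart by strand and are divided by RSEM's estimate. The share was 74.1% for CYP51A1 (AKAP9 and CYP51A1-AS1 on the opposite strand, ENSG00000285772 and ENSG00000289027 on the same strand), 37.7% for HMGCS1, 36.4% for EBP, 22.2% for ACAT2 and 18.6% for FDPS. FADS1 (chr11:61799627-61829318, minus strand) and FADS2 (chr11:61792980-61867354, plus strand) overlap each other, with 5.57% and 5.11% of their exonic bases shared with other genes. The posterior SD that RSEM gave for the division of reads was 3.10% of the count for CYP51A1, 2.04% for ACAT2 and 1.44% for FADS2. It was largest for HSD17B7, at 3.27%. The fitted change itself was 1.33-fold in CYP51A1, 1.42-fold in ACAT2 and 1.33-fold in FADS2.

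Other genes of the same pathways were taken from 4 lists with 51 genes that are not members. Of the 45 that passed the filter on low counts, 4 were higher and 5 lower, with a median log2 fold change of -0.0070. These counts are near the 7.00% higher and 7.14% lower of all tested genes, so nothing is read from them, and the values below are descriptions. The 4 that rose belong to the 10 genes of sterol synthesis and its electron supply (median 0.097). Among them LBR, a nuclear envelope protein that is also a sterol C14 reductase like TM7SF2, rose by 0.23 (adjusted p = 0.017). TMEM97, a membrane protein that binds sterols, rose by 0.29 (adjusted p = 0.0058), and CYB5B, a cytochrome b5, by 0.23 (adjusted p = 0.0397).

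Of the 9 genes of SREBP processing and sterol-regulated degradation none rose and 2 fell, among them RNF145, a ubiquitin ligase of sterol-regulated degradation (-0.17, adjusted p = 0.0472). The list's median was -0.041. Of 12 genes of sterol sensing, trafficking and storage 9 were tested and none passed in either direction (median 0.0068), the smallest p being that of NR1H2 (-0.15, adjusted p = 0.263). Of 20 further genes of fatty acid synthesis, elongation and activation 17 were tested, none rose and 3 fell, with a median of -0.062. These were ACSS2, the cytosolic acetyl-CoA synthetase (-0.36, adjusted p = 0.0196), the desaturase-like FADS3 (-0.27, adjusted p = 0.0452) and the long-chain acyl-CoA synthetase ACSL1 (-0.77, adjusted p = 0.0430). LBR, TMEM97, CYB5B, RNF145, FADS3 and ACSL1 were named after their values were seen. TMEM97 kept its call with any one library left out, and LBR, CYB5B, RNF145, ACSS2, FADS3 and ACSL1 lost theirs in at least 1 such fit (adjusted p = 0.0684 to 0.227). This was the case without untreated replicate 1 for LBR, CYB5B, RNF145, ACSS2, FADS3 and ACSL1, without untreated replicate 2 for RNF145, ACSS2, FADS3 and ACSL1, without hemin replicate 1 for CYB5B, RNF145 and ACSL1, and without hemin replicate 2 for LBR, RNF145, ACSS2 and FADS3.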

How the data were processed

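Poly(A)+ RNA libraries of 2 untreated and 2 hemin-treated K562 samples were analysed. The authors trimmed the reads and quantified them with RSEM 1.3.1 on Ensembl 106, and the submitters' processing notes also name Trimmomatic 0.39, STAR 2.7.5c, SAMtools 1.15 and deepTools 3.5.1. The expected counts deposited by the authors are raw RSEM estimates per gene, in which a read that fits several genes is shared among them. The TPM deposited by the authors are scaled by effective length and sum to the same total in each library. The tables of TPM with gene names were used for the names only, and the FPKM tables and the authors' differential table were not used.

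Expected counts were rounded, filtered with filterByExpr, scaled by the TMM method, and compared with edgeR 4.0.16 (R 4.3.3) by the quasi-likelihood test over 14458 genes, with no covariate beside condition. Benjamini-Hochberg adjustment ran over all of them, with a threshold of 0.05, and the common dispersion was 0.001179. Libraries of the same condition differed beyond counting noise (chi-square per gene 1.80 untreated and 2.21 with hemin). Nothing in the labels says that they came from separate cultures, so p-values measure the spread between these libraries, which may be technical. Intervals of counts are exact, at 95%, and like the floor of 3 counts cover counting error only. On counts simulated with this dispersion, the fit called 66 of 198 genes given a log2 change of 0.35. Of 197 genes given a change of 1 it called 167. It also called 3 and 7 unchanged genes in these simulations. A real change of the smaller size could thus be missed. The changed genes were drawn at random across depths, and every gene was given the common dispersion. These shares are therefore not rates for the members, of which 23 had a mean count of at least 200.

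Of the gene IDs 99.84% were in GENCODE 44, which gave the coordinates; the promoter windows are from RefSeq. All members are named, with full statistics where they passed the test; of other genes, that with the smallest p in each list, and those behind a count of 5 or fewer, except for some genes that are not reported here. The members and lists were chosen with earlier results of these data known. Alternatives were RLE factors, library size alone, DESeq2 1.42.0, a replicate block, no filter, a stricter filter (20 counts), leaving out each library, RSEM's posterior mean counts, and limma 3.58.1 on log2(TPM + 1) and log2(TPM + 0.1).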

Additional observations from a re-analysis of the deposited data

How the results depend on the processing

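The direction of all 17 members that rose was the same in the 13 alternatives, and 10 of them (ACAT2, HMGCS1, SQLE, LSS, CYP51A1, SREBF2, ACACA, FASN, ELOVL6 and SCD) kept the call in all 10 edgeR alternatives. DESeq2 kept 13. The number of members called higher was 10 (without untreated replicate 1) to 15 with one library left out and 0 with limma on log2(TPM + 1) and also 0 on log2(TPM + 0.1), where 15 were higher and 3 lower at an unadjusted p under 0.05. The number called lower was 0 to 1, the 1 being MVD without hemin replicate 1. The single library that then remained in a condition was taken to vary as the other condition did. Over all genes, 469 to 934 were higher and 512 to 884 lower with one library left out (fewest without untreated replicate 1, followed by untreated replicate 2), against 589 and 479 in DESeq2, 14 and 33 with limma on log2(TPM + 1), and 15 and 34 on log2(TPM + 0.1). Of the 51 pathway genes that are not members, those called higher numbered 3 in DESeq2, 3 with the replicate block and 1 in each limma setting. Those of the 51 called lower numbered 1 in DESeq2, 2 with the replicate block and 0 in each limma setting. The labels give replicates a shared number only. Same-numbered libraries did not deviate together (r = -0.032 over 7229 genes), which cannot show whether they were handled together. The replicate block called 16 members higher, without FADS2, with 855 genes higher and 886 lower. Values of 4 members changed sign. MSMO1 ran from -0.2275 to 0.0535 and SC5D from -0.093 to 0.0413 with one library left out, and SC5D was at 0.39 and 0.41 with limma. STARD4 ran from -0.037 to 0.0489 with one library left out, and was at -0.0348 with library size alone and at -0.046 and -0.047 with limma. FADS1 was at -0.0026 in both limma settings. The cause of these changes was not tested. Counts limit the precision of the 9 members under 200 counts.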
